A study of Mus musculus with 48 samples.

Results

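Tumour-infiltrating CD8 T cells of aged mice that had received a Dusp5 guide RNA were compared with cells carrying the OTC control, within the sorted state that the labels call Ttad. The comparison rests on 4 ATAC-seq libraries of 48 in the series, 2 per group, chosen by the guide, the host letter and the state in the sample titles, and it covers all 53868 peaks of the deposited table. All cells were OT-1 CD8 T cells, which recognise an ovalbumin peptide, from CD45.1 donors expressing Cas9. Spleen cells were transduced with a lentivirus carrying 1 guide and an ametrine reporter, transferred into hosts, and sorted back from B16-OVA melanomas 15 days after the tumour cells were given. Ttad cells, labelled as age-associated dysfunctional, were negative for both Slamf6 and Tim-3; Tprog were positive for Slamf6 alone, Ttran for both and Tterm for Tim-3 alone. Those labelled Dusp5KO and those labelled OTC therefore share Cas9, the vector, the receptor and the tumour, and differ in the guide. The letter A in the titles was read as aged host; host ages and guide sequences were not used here, and no Ttad library of young hosts was analysed here. Each library pooled cells of several mice, so p-values do not measure the spread between single mice. Those of the main test, limma, rest on the spread between replicate libraries over all 48 libraries in 21 groups. They do not rest on the 4 compared libraries alone. It was not stated whether replicates of a group were pools of different mice, or whether the states came from the same mice.

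Dusp5 encodes a nuclear dual-specificity phosphatase that removes phosphate from ERK, the last kinase of the cascade that starts at Ras, and holds it in the nucleus. ERK activity downstream of the T cell receptor induces AP-1 and ETS-family factors, and its own phosphatases, among them Dusp5 and Dusp2, are induced in turn as negative feedback. ATAC-seq reads the openness of DNA: the Tn5 transposase inserts adapters where chromatin is accessible, and a peak is a region rich in insertions. A lower value in a bulk library can mean fewer cells with the site open or less insertion per cell, and these cannot be told apart.

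The promoters of 4 genes are shown because a result turns on the peak over each of them. Dusp5 was targeted, Dusp2 is the other ERK phosphatase of the nucleus with called peaks, Fosl2 encodes an AP-1 subunit, and Runx3 encodes a CD8 lineage factor whose locus held several called peaks. Each window runs from 250 bases before to 50 bases after the annotated start, in the direction of the gene, on the plus strand of GRCm38.p6 (RefSeq). Capitals mark matches, on either strand, to the motifs searched, which were ETS (CCGGAAG), AP-1 (TGACTCA), CRE (TGACGTCA), RUNX (TGTGGTT), SP and KLF (CCCCGCCC) and NRF1.
Dusp5, chr19:53528895-53529194: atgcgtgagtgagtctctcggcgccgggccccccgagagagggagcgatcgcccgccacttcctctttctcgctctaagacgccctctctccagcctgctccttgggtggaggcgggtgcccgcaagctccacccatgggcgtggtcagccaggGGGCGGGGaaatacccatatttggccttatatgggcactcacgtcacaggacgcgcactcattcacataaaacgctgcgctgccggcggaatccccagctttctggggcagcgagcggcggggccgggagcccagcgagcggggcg
Dusp2, chr2:127335909-127336208: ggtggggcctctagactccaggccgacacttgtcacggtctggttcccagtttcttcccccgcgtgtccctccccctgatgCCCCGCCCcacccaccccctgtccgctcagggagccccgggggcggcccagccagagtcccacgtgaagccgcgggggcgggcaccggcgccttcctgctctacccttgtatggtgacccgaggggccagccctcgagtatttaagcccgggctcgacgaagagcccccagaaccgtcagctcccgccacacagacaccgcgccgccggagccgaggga
Runx3, chr4:135120395-135120694: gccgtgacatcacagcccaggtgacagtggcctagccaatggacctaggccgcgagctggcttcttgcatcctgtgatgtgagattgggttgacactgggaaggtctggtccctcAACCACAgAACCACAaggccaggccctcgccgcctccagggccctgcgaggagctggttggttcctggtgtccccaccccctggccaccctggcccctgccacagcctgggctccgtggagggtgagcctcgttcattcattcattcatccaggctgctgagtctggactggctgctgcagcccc
Fosl2, chr5:32136222-32136521: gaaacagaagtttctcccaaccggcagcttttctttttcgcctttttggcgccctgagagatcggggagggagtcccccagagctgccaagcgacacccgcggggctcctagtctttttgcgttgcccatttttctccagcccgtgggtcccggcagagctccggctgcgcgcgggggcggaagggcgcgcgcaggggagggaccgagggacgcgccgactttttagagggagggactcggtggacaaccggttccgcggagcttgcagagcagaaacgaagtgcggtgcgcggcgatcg
Dusp5 and Dusp2 each hold 1 SP and KLF match, at positions -96 and -169 from the start. Runx3 holds 2 RUNX matches, at -135 and -127, and Fosl2 holds none of these motifs.

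The depth of the 4 libraries lay in the lower part of the series. Reads in peaks numbered 8887064 and 7786663 in the Dusp5 libraries and 8059981 and 10929698 in the OTC libraries, against a median of 14691505 over all 48. Values below are normalized reads, the deposited unit, which is reads divided by a size factor of the library. Replicates correlated across peaks at Pearson's r of 0.946 for Dusp5 and 0.948 for OTC, on log2(value + 1); peaks are not independent replicates. Peaks over the bodies of 10 CD8 T cell genes summed to 14685 and 15381 in Dusp5 cells against 20881 and 21000 in OTC cells, sums that include the Thy1 peak at 208 and 172 against 4884 and 4611. limma called 5 of the 78 peaks of these genes lower (6.41%, against 1.67% of all peaks) and none higher. CD4 and regulatory T cell genes summed to 5830 and 6222 against 6734 and 6830. Of their 36 peaks 2 were called lower by limma (5.56%, against the same 1.67%) and none by limma and edgeR together. Both sorting markers had open sites. The highest peak of Havcr2, the Tim-3 gene, held 778 and 854 in Dusp5 cells against 825 and 934 in OTC cells, and that of Slamf6 held 409 and 473 against 478 and 506. No peak was assigned to Cd79a, Cd79b or Ms4a1 of B cells, Csf1r, Lyz2 or Adgre1 of myeloid cells, Tyr, Dct or Tyrp1 of melanoma, or Foxp3 of regulatory T cells. Peaks over the gene bodies of the remaining markers summed to 603 to 689 against 584 to 607 for B cells, 1955 to 1978 against 1932 to 2000 for myeloid cells, 941 to 961 against 1023 to 1295 for melanoma 2699 to 3234 against 3264 to 3416 for stroma, and 1.67 to 17.6 against 4.93 to 8.38 for NK cells. At myeloid genes limma called 1 of 21 peaks higher (4.76%, against 1.21% of all peaks) and none lower, and limma and edgeR together called none. No peak of the B cell, NK cell, melanoma or stroma genes was called by limma. The part of other cells in the results was not tested.

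By the joint tests, peaks lower in Dusp5 cells outnumbered peaks higher in them, and most of the lower ones were strong peaks. A peak was called when its adjusted p was under 0.05 by limma on log2(value + 1) with all 48 libraries in the fit, and 2 further tests on the recovered whole reads, edgeR's quasi-likelihood test and limma voom, were used to sort the calls. All 3 tests called 224 peaks (0.416% of those tested), 200 of them lower in Dusp5 (0.371%) and 24 higher (0.0446%). limma and edgeR together called 833 (1.55%), 573 lower (1.06%) and 260 higher (0.483%), and limma by itself called 1552 (2.88%), 899 lower (1.67%) and 653 higher (1.21%). Leaving out Dusp5 replicate 2 lowered the limma count to 737, 215 higher and 522 lower. The balance of the limma calls turned when an OTC library was left out, to 372 higher and 296 lower without OTC replicate 1 and to 794 higher and 550 lower without OTC replicate 2. The 200 peaks lower by all 3 tests had a median log2 fold change of -0.43, a change in value of -25.8%, so most changes were modest in size. Their median level was 1050 normalized reads, against 93.9 over all peaks, and 70 of them (35.0%) lay over an annotated promoter window, against 17.2% of all peaks. Strong peaks lie over promoters more often: in the strongest of 10 equal bins by level, 2793 of 5387 peaks did.

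The change depended on how strong a peak was. With peaks split by level into 10 equal bins, the median log2 fold change went from 0.24 in the weakest to -0.11 in the strongest, and 129 of the 200 falls lay in the strongest bin. The part of this slope in the falls was not tested. Quantile and cyclic loess normalization, which remove such a slope, left 118 and 128 of the 224 peaks called in the same direction. The losses were mostly falls: 95 of the 200 falls and 23 of the 24 rises stayed under quantile, and 107 falls and 21 rises under loess normalization. Under them the share of higher peaks among limma calls moved from 42.1% to 52.9% and 53.2%.

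**Figure D1:**
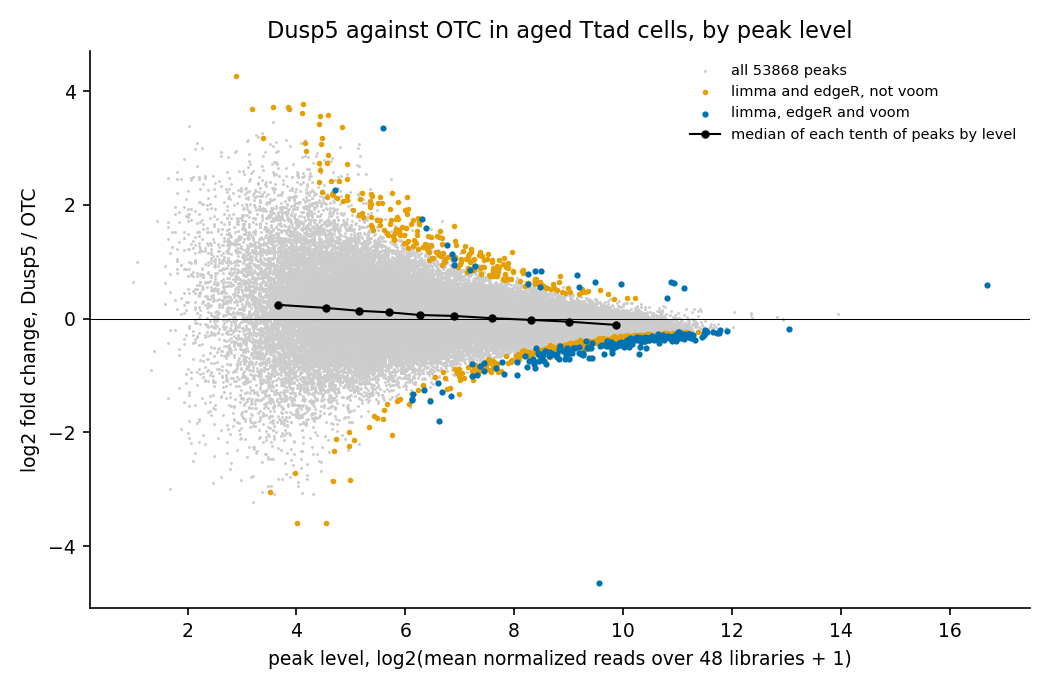
Log2 fold change of Dusp5 over OTC in aged Ttad cells (vertical axis) against the level of each peak (horizontal axis, log2 of the mean normalized reads over 48 libraries plus 1), with 1 point per peak. Blue points are the 224 peaks called by 3 tests, orange points those called by limma and edgeR alone, and the black line joins the medians of 10 equal bins, which go from 0.24 to -0.11.

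At Dusp5 itself 17 peaks were assigned and 1 was called. The strongest (chromosome 19, 53460413 to 53462012, 67133 bp outside the gene) held 1239 and 1215 normalized reads in the Dusp5 libraries against 1534 and 1590 in the OTC libraries. Both Dusp5 libraries were below both OTC libraries, a log2 fold change of -0.35 ± 0.08 (SE) with an adjusted p of 0.00441 by limma, which also passed edgeR and voom. Its adjusted p became 0.166 under quantile and 0.141 under cyclic loess normalization, so the call rests on the scaling. In aged Ttad cells with the Zfp219 guide this peak held 1331 and 1280. Against the same OTC libraries that was a log2 fold change of -0.26 (limma adjusted p = 0.0231). Dusp5 against Zfp219 was at -0.09 (limma adjusted p = 0.531), so the fall was not particular to the Dusp5 guide. The promoter peak (53528476 to 53530901), over the sequence shown, held 864 and 917 against 1003 and 923, a log2 fold change of -0.11 ± 0.08 (SE) with an adjusted p of 0.549 by limma. Its groups did not overlap, and the difference did not pass the adjusted test. Accessibility does not measure the edit, and the editing of Dusp5 was not measured here.

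Among 18 genes that restrain ERK or p38, the falls called by limma and edgeR were at Dusp2 and Dusp7 besides Dusp5. Of the 138 peaks of these genes 4 were lower by limma and edgeR (2.90%, against 1.55% called in either direction over all peaks), 3 of them also by voom, and none was higher. limma alone called 6, all lower. Dusp2 encodes an inducible nuclear ERK phosphatase, and all 3 of its peaks were lower in Dusp5 cells, 2 of them called. Its upstream peak (chromosome 2, 127322841 to 127324966, 11193 bp from the gene) held 680 and 784 against 994 and 1020, the Dusp5 libraries well below, with a log2 fold change of -0.46 ± 0.09 (SE) with an adjusted p of 0.00154 by limma. It also passed limma after quantile (adjusted p = 0.0302) and cyclic loess (adjusted p = 0.0231) normalization. The broad Dusp2 promoter peak (127332460 to 127336355) held 3680 and 3817 against 4328 and 4423, a log2 fold change of -0.22 ± 0.05 (SE) with an adjusted p of 0.00267 by limma. Under quantile and loess normalization its adjusted p was 0.532 and 0.908. Dusp7, a cytoplasmic ERK phosphatase, had a weak intragenic peak at 60.1 and 83.6 against 101 and 173, called by limma (adjusted p = 0.0339) and edgeR but not by voom. At Dusp6, the cytoplasmic ERK phosphatase most used as a readout of the pathway, none of 4 peaks was called by any of the 3 tests, and none had an unadjusted limma p under 0.05.

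Mapkapk3, a kinase activated by p38 and ERK, was outside the gene lists. It was singled out after its values were seen because 2 of its 7 peaks fell by all 3 tests, against 0.371% of all peaks. One intragenic peak (chromosome 9, 107263781 to 107265421) held 442 and 434 against 661 and 685, with a log2 fold change of -0.62 ± 0.13 (SE) with an adjusted p of 0.00146 by limma, and remained called under every alternative run. The stronger one (107279852 to 107281517) held 1672 and 1817 against 2267 and 2285, a log2 fold change of -0.39 ± 0.07 (SE) with an adjusted p of 0.000276 by limma, and lost its call under quantile normalization (0.0897). At Mapk14, which encodes p38 alpha, none of 8 peaks was called by any of the 3 tests, and 1 was lower at an unadjusted limma p under 0.05.

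Upstream in the cascade, the 107 peaks at 15 genes from Ras to ERK held 1 fall by limma and edgeR (1.06% of all peaks were called lower), which did not pass voom. Rasgrp1, the Ras activator of T cells, had an intragenic peak at 87.9 and 70.2 against 143 and 186, a log2 fold change of -1.04 ± 0.26 (SE) with an adjusted p of 0.0125 by limma. Both Dusp5 libraries were below both OTC libraries.

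Genes that respond to ERK gave 3 falls by limma and edgeR among 161 peaks (1.86%, against 1.06% of all peaks called lower) and none by voom. Etv5, an ETS-family factor used as a readout of ERK output, had its promoter peak at 1131 and 978 against 1450 and 1241. Bcl2l11, which encodes the pro-apoptotic protein Bim, had its promoter peak at 1245 and 1126 against 1487 and 1466. Elk3, an ETS-family partner of serum response factor, had a peak outside the gene at 1099 and 1175 against 1455 and 1388. Their log2 fold changes were -0.35, -0.32 and -0.32 (SE 0.08, 0.08 and 0.09), and all 3 lost the call under quantile and loess normalization. At Egr1, an immediate-early target of ERK, the strongest peak was called by limma alone (log2 fold change -0.22, adjusted p = 0.0363).

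In the AP-1 family 2 of 106 peaks were called by limma and edgeR (1.89%, near the 1.55% of all peaks), both at Fosl2 and both lower by all 3 tests. The Fosl2 promoter peak (chromosome 5, 32134999 to 32136571), over the sequence shown, held 1918 and 1659 against 2445 and 2237, a log2 fold change of -0.39 ± 0.07 (SE) with an adjusted p of 0.000235 by limma. A second Fosl2 peak 2541 bp before the gene held 815 and 988 against 1194 and 1207, a log2 fold change of -0.42 ± 0.09 (SE) with an adjusted p of 0.00229 by limma. Both stayed called under loess normalization (0.0414 and 0.0451) and not under quantile normalization (0.0618 and 0.0625). Jdp2, an AP-1 repressor singled out after its values were seen, had 2 intragenic peaks that fell by all 3 tests. Both stayed called under all 15 alternatives, of which edgeR and voom are already among the 3 tests. One held 334 and 311 against 570 and 492 (log2 fold change -0.71, SE 0.14, limma adjusted p = 0.000665). The other, weaker, held 32.2 and 70.2 against 149 and 190 (log2 fold change -1.80, SE 0.30, limma adjusted p = 7.58e-05).

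**Figure D2:**
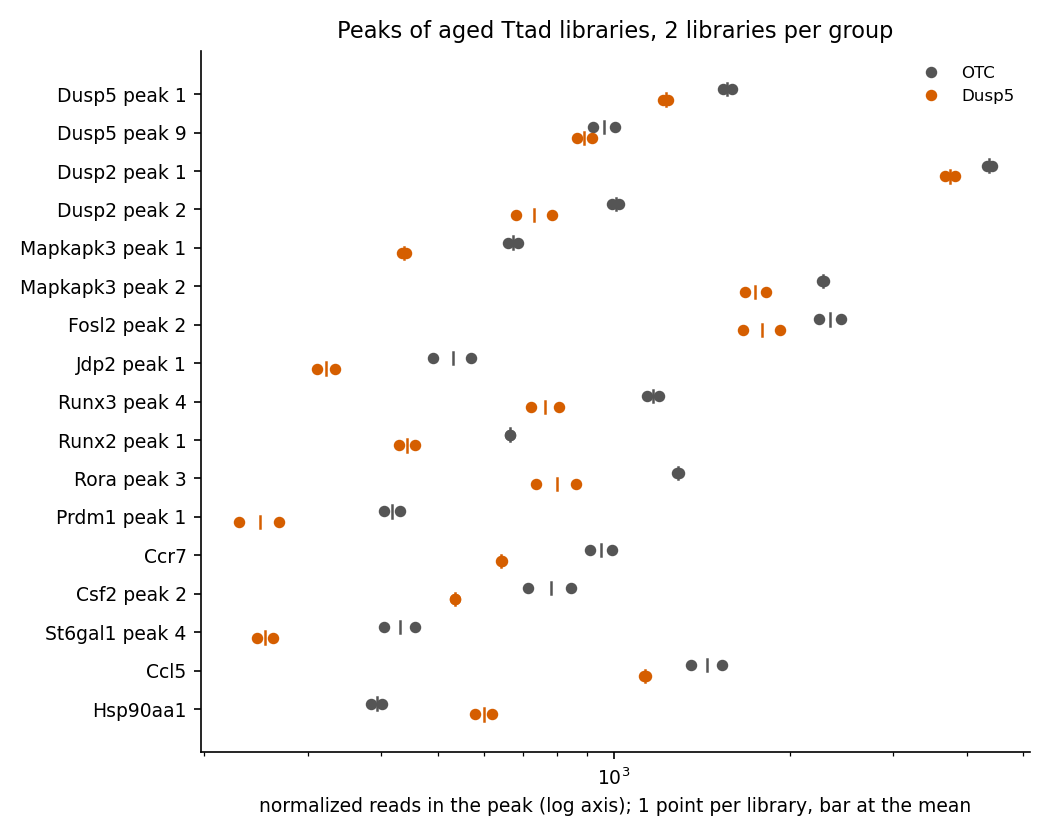
Normalized reads (horizontal log axis) in 17 named peaks of aged Ttad cells, with 1 point for each of the 2 OTC (grey) and 2 Dusp5 (orange) libraries and a bar at the group mean. The OTC and Dusp5 libraries do not overlap at any of these peaks, the Dusp5 promoter (peak 9) lies closest, at 864 and 917 against 1003 and 923, and Hsp90aa1 alone is higher in Dusp5.

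Among residency and homing genes, Runx3, which represses Cd4 and supports tissue residency, had 23 peaks, 17 of them lower, and 4 lower by limma and edgeR. One intragenic peak (chromosome 4, 135168417 to 135169906) held 721 and 807 against 1192 and 1140, with both Dusp5 libraries far below. Its log2 fold change was -0.61 ± 0.10 (SE) with an adjusted p of 3.18e-05 by limma. It remained called under all 15 alternatives, edgeR and voom included. A second (135158551 to 135160481) held 1330 and 1298 against 1881 and 1571, a log2 fold change of -0.39 ± 0.08 (SE) with an adjusted p of 0.00314 by limma, and was lost under quantile (0.103) and loess (0.0911) normalization. The Runx3 window printed above lies under a peak (135118721 to 135121521) with a log2 fold change of -0.23 ± 0.06 (SE) with an adjusted p of 0.0177 by limma, which voom did not call and which became 0.802 under quantile normalization. Itgal, encoding the LFA-1 integrin subunit, had a peak 7473 bp outside the gene at 224 and 272 against 345 and 376, not called by voom. With these, 5 of 95 peaks at 12 residency and homing genes were called lower by limma and edgeR (5.26%, against 1.06% of all peaks) and none higher.

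Prdm1 encodes Blimp-1, a transcriptional repressor that promotes terminal differentiation. Of its 22 peaks 2 were called lower by limma and edgeR. A peak 26438 bp from the gene (chromosome 10, 44409537 to 44410736) held 268 and 229 against 406 and 431. Its log2 fold change was -0.75 ± 0.15 (SE) with an adjusted p of 0.000857 by limma. It was called under all 15 alternatives, edgeR and voom included. The intragenic one (44449764 to 44451102) held a mean of 245 against 359, with both Dusp5 libraries below both OTC libraries, a log2 fold change of -0.55 ± 0.14 (SE) with an adjusted p of 0.0119 by limma, without a voom call. Nr4a3, an orphan receptor induced by receptor signalling, had a peak at 1700 and 1773 against 2153 and 2057 that voom did not call and that lost its limma call under both slope-removing normalizations. These are the 3 calls by limma and edgeR among 150 peaks at 15 genes of the exhaustion list (2.00%, against 1.55% of all peaks), where limma alone called 6, all lower. Of the other exhaustion genes, the strongest Pdcd1 peak was called by limma alone, at 2536 and 2650 against 3003 and 2951, and none of 27 Tox peaks was called by limma, with 1 higher at an unadjusted p under 0.05.

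Runx2 and Rora were singled out after their values were seen, as loci with 3 peaks lower by all 3 tests. Runx2, a RUNX factor linked to memory CD8 cells, had 45 peaks, 42 of them lower and 6 called lower by limma and edgeR. Of all peaks, 1.06% were called lower by these tests and 0.371% by all 3. Its peak at chromosome 17, 44536222 to 44537574 held 429 and 458 against 666 and 664 (log2 fold change -0.58, SE 0.13, limma adjusted p = 0.00463), and it remained called under both slope-removing normalizations. Rora, a nuclear receptor, had 30 peaks, 27 of them lower and 4 called by limma and edgeR. The Rora peak at chromosome 9, 69339781 to 69341024 held 737 and 862 against 1293 and 1284 (log2 fold change -0.69, SE 0.11, limma adjusted p = 7.58e-05) and that at 69304122 to 69306123 held 1089 and 1106 against 1546 and 1549 (-0.50, SE 0.08, limma adjusted p = 8.96e-05). Both held under all 15 alternatives, edgeR and voom included. Medians over all peaks of these loci were -0.27 for Runx2 and -0.26 for Rora, against 0.00 over all peaks tested. Both loci were picked for their falls, so these counts and medians follow in part from the choice.

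St6gal1, the sialyltransferase that adds alpha-2,6 sialic acid to surface glycoproteins, was the locus with most falls by all 3 tests, 4 of 22 peaks. Of all peaks 0.371% fell by these tests, and the locus was likewise singled out after its values were seen. The 4 are intragenic, on chromosome 16 between 23287234 and 23300826. In order of position they held 573 and 625 against 872 and 795, then 236 and 271 against 548 and 425, then 168 and 184 against 308 and 318, and then 262 and 246 against 458 and 405. In each of them both Dusp5 libraries were below both OTC libraries. Log2 fold changes ran from -0.93 to -0.48, with limma adjusted p of 0.0136 to 0.0154, and 3 of the 4 stayed called under quantile normalization. At the cytokine gene Csf2, which encodes GM-CSF, 10 of 12 peaks were lower and 2 fell by all 3 tests. This locus too was singled out after its values were seen. The Csf2 promoter peak (chromosome 11, 54248950 to 54250087) held 536 and 535 against 845 and 715 (log2 fold change -0.54, SE 0.14, limma adjusted p = 0.0174), with 0.0813 under quantile and 0.047 under loess normalization.

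**Figure D3:**
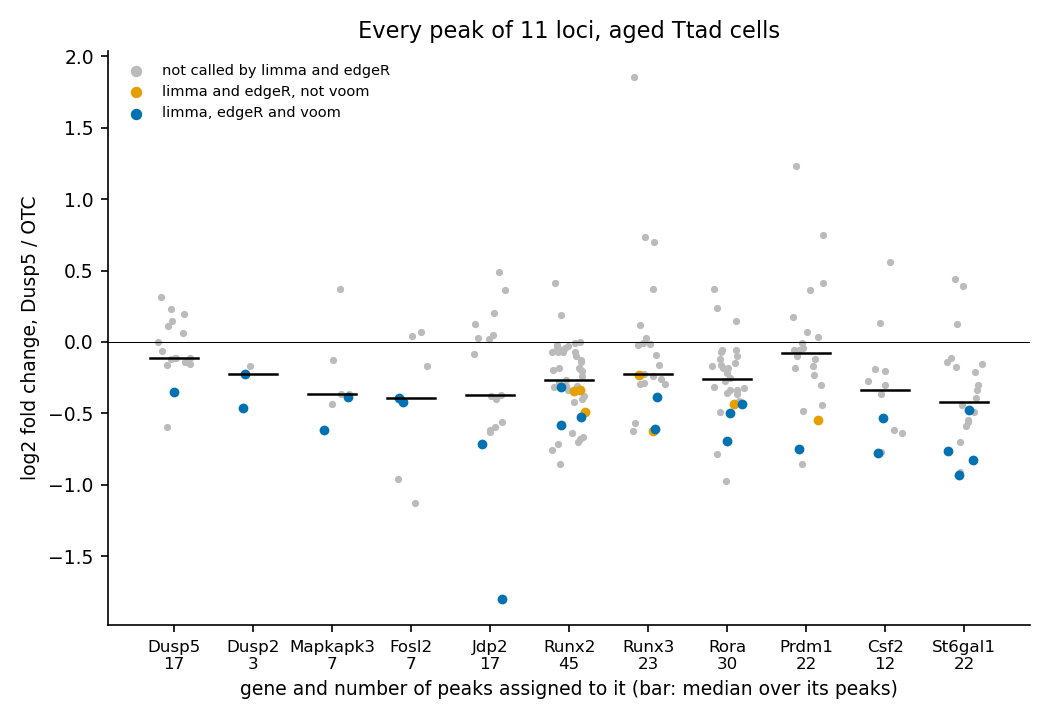
Log2 fold change of Dusp5 over OTC (vertical axis) for every peak assigned to 11 genes (horizontal axis, with the number of peaks), where blue points passed 3 tests, orange points limma and edgeR alone, grey points neither, and bars are medians over a gene's peaks. At Runx2 42 of 45 peaks and at Rora 27 of 30, loci picked for their falls, lie below 0, while the 17 Dusp5 peaks lie on both sides.

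At effector genes 2 of 178 peaks (1.12%) and at senescence and survival genes 1 of 86 (1.16%) were called by limma and edgeR, against 1.55% of all peaks. Ccr7, the receptor that draws cells to lymph nodes, had the 1 peak called by limma and edgeR among 172 at 15 stem-like and quiescence genes (0.581%, against 1.55% of all peaks), and limma alone called 3, all lower. That intragenic peak (chromosome 11, 99142416 to 99145031) held 643 and 642 against 993 and 912, a log2 fold change of -0.57 ± 0.13 (SE) with an adjusted p of 0.00561 by limma, passed all 3 tests and stayed called under quantile (0.0412) and loess (0.0175) normalization. None of 12 peaks at Tcf7, encoding TCF1, was called by limma, and 1 was lower at an unadjusted p under 0.05. Ccl5, a chemokine of effector cells, had a peak 3450 bp outside the gene at 1134 and 1125 against 1353 and 1533, a log2 fold change of -0.35 ± 0.08 (SE) with an adjusted p of 0.00492 by limma that passed voom and was lost under quantile normalization (0.17). Eomes, a T-box factor, had a weak distal peak at 35.2 and 35.1 against 6.71 and 4.93, the 1 rise at effector genes by limma and edgeR, without a voom call. By limma alone 4 of 178 effector peaks were higher and 1 lower. Cdkn2c, a cell-cycle inhibitor, had a weak peak at 27.8 and 28.4 against 1.68 and 4.93, also without a voom call. Cd8a, named after its values were seen as a call among CD8 markers, had its promoter peak at 623 and 577 against 808 and 812 (log2 fold change -0.43, SE 0.11, limma adjusted p = 0.00956), again not called by voom and lost under quantile (0.0791) and loess (0.0666) normalization.

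Over all 133 genes of the lists that are not cell markers, 131 had peaks, 1142 in number, with a median log2 fold change of -0.05. By limma and edgeR 20 of these peaks were lower and 3 higher (2.01% in all, against 1.55% of all peaks), and 10 were lower and none higher by all 3 tests. Over all peaks, 0.371% were lower and 0.0446% higher by all 3 tests, so few or no rises would be seen in a list of this size. The lists were chosen with earlier results of these data in view, so the counts describe them and single out none.

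The single largest change was at Thy1, which encodes the T cell surface protein CD90. One peak within the gene (chromosome 9, 44046603 to 44047436) held 208 and 172 normalized reads in the Dusp5 libraries against 4884 and 4611 in the OTC libraries. The groups are far apart, with a log2 fold change of -4.64 ± 0.14 (SE) with an adjusted p of 6.25e-48 by limma. The call held in every alternative run, edgeR and voom included. The other 13 peaks assigned to Thy1 had log2 fold changes of -0.28 to 0.86 and none was called. Across the series this peak did not follow the guide or the state in any one order. Group means were 2997 in aged OTC Ttran and 3155 in aged Zfp219 Ttran but 230 in aged Dusp5 Ttran. They were 894 in aged OTC Tterm against 123 in aged Dusp5 Tterm, and 129 in aged OTC Tprog against 200 in aged Dusp5 Tprog. Aged Zfp219 Ttad was at 617, and the remaining groups lay within 123 to 585.

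**Figure D4:**
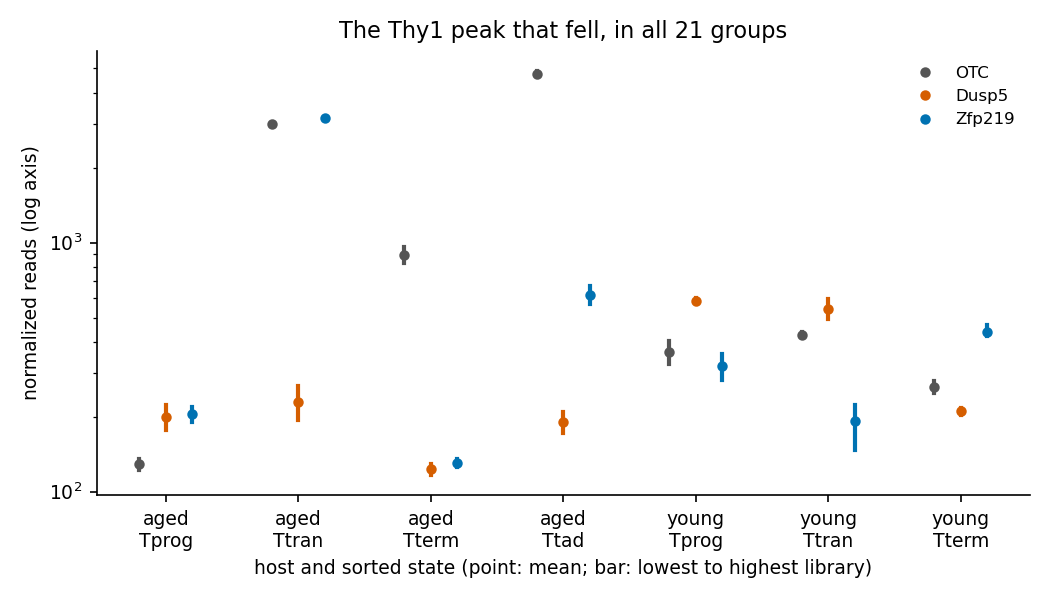
Normalized reads (vertical log axis) in the Thy1 peak for each of the 21 groups, by host and sorted state (horizontal axis) and guide (colour), with a point at the mean and a bar from the lowest to the highest library. Aged OTC Ttad, at a mean of 4748, is highest, and aged Dusp5 Ttad, at 190, lies among the low groups.

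Apart from Thy1, the largest fold changes were at weak peaks and were less firm. The 10 largest rises by limma and edgeR, at Plekhg3, Sox17, Zfhx2, Primpol, Atp8a2, Syt7, Ptpn3, Sil1, Cdkn2c and Rad51b, had fitted log2 fold changes of 2.74 to 3.72, and only that near Syt7, a vesicle calcium sensor, passed voom. The Syt7 peak held 32.2 and 55.1 against 16.8 and 0. At Ptpn3, a tyrosine phosphatase gene with 3 or fewer OTC reads in its peak, the ratio of the groups was 12.1 with a 95% exact interval of 3.79 to 61.6 that covers counting error alone. The other 9 of the 10 largest falls, at Cfap97d2, Inpp5d, Neurl1a, Rc3h1, Cdh1, Stam2, Edn1, Trerf1 and Insyn2b, had fitted values of -3.59 to -1.91, none with a voom call. Edn1 encodes endothelin-1, and its peak, 66157 bp from the gene, held 23.4 and 18.4 against 95.6 and 82.5. It stayed called by limma under quantile (adjusted p = 0.00152) and loess (0.00141) normalization. The Edn1 peak was also lower in Ttran (log2 fold change -2.07, limma adjusted p = 0.000949) and Tterm (-2.61, limma adjusted p = 1.93e-05). In Tprog it was at -0.87, not called (limma adjusted p = 0.445). Rc3h1 encodes Roquin-1, a repressor of inflammatory messages, and its peak held 5.86 and 5.01 against 31.9 and 30.8.

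The strongest falls with a gene were promoters that changed little in size: Dusp2, Mnt, Sp1, Klf13 and Crlf2, at log2 fold changes of -0.26 to -0.20. Sp1 and Klf13 encode zinc-finger factors that bind GC boxes, and the Sp1 promoter held 3099 and 3078 against 3645 and 3735. All 5 passed the 3 tests and all 5 lost the call under quantile and loess normalization, with adjusted p of 0.0959 to 0.991 there.

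Of the 24 rises by 3 tests, 33.3% had no gene, against 5.12% of all peaks. On scaffolds outside the assembled chromosomes lay 6 of the 24, against 110 of all 53868 peaks. The lowest limma adjusted p of the rises, 2.95e-40, was on an unplaced scaffold. Among the rises with a gene, the lowest was at Hsp90aa1, the inducible cytosolic HSP90 chaperone. Its peak (chromosome 12, 110688567 to 110691123), within the gene, held 580 and 618 against 386 and 402. The log2 fold change was 0.60 ± 0.09 (SE) with an adjusted p of 2.27e-05 by limma. The peak was called under all 15 alternatives, edgeR and voom included. The other strong rises were near Gm52481 on chromosome Y, at Gm40369, at Gm40365 and near Spen, with log2 fold changes of 0.34 to 0.37; of these Gm52481 alone passed voom, and read placement on chromosome Y repeats is uncertain. Of the 24 rises, 11 were also called lower by limma and edgeR in Tprog and higher in Tterm. Over all peaks 0.499% were called lower in Tprog and 1.2% higher in Tterm, and the share with both was not counted. Of these 11 peaks, 5 lay on unplaced scaffolds and 7 had no gene; their log2 fold changes were 0.54 to 1.05 in Ttad, -1.71 to -0.86 in Tprog and 1.31 to 2.25 in Tterm. The widest, 45856 bp on an unplaced scaffold, held 195840 and 204245 normalized reads against 131959 and 133680. Reads on such sequence cannot be placed with certainty.

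The falls were then set beside the same guide in the other sorted states of aged hosts, whose OTC libraries are separate. By limma and edgeR together Tprog had 351 calls (0.652%), Ttran 1687 (3.13%) and Tterm 1781 (3.31%). Of the 573 peaks lower in Ttad by these tests, Tprog called 54 lower as well, Ttran 190 and Tterm 162, and each of these states called 1 higher. Over all peaks, 0.499%, 2.26% and 2.1% were called lower in these states, and 0.152%, 0.869% and 1.2% higher. A log2 fold change below 0 was seen at 437 of the 573 in Tprog, 511 in Ttran and 531 in Tterm. These are 76.3%, 89.2% and 92.7%, against 52.5%, 49.0% and 50.5% of all peaks. The strongest bin by level held 311 of the 573. Median log2 fold changes over all peaks of that bin were 0.01 in Tprog, -0.09 in Ttran and -0.12 in Tterm. The part of peak level in the shared direction was not tested. Called lower peaks of Tprog, Ttran and Tterm were in that list in 20.1%, 15.6% and 14.3% of cases. At single genes, the Runx3 intragenic peak fell in all 4 states, with log2 fold changes of -0.45, -0.74 and -0.44 in Tprog, Ttran and Tterm (limma adjusted p = 0.00455, 5.83e-08 and 0.00242). The first Mapkapk3 peak did so too, at -0.51, -0.58 and -0.48 (limma adjusted p = 0.0221, 0.00162 and 0.0137). The Prdm1 peak that fell in Ttad had values near 0 elsewhere, -0.07, -0.06 and -0.13, but the test of that difference did not pass (limma adjusted p = 0.0611). The Hsp90aa1 peak was higher in Tprog (0.45) and Tterm (0.40) and at 0.02 in Ttran.

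**Figure D5:**
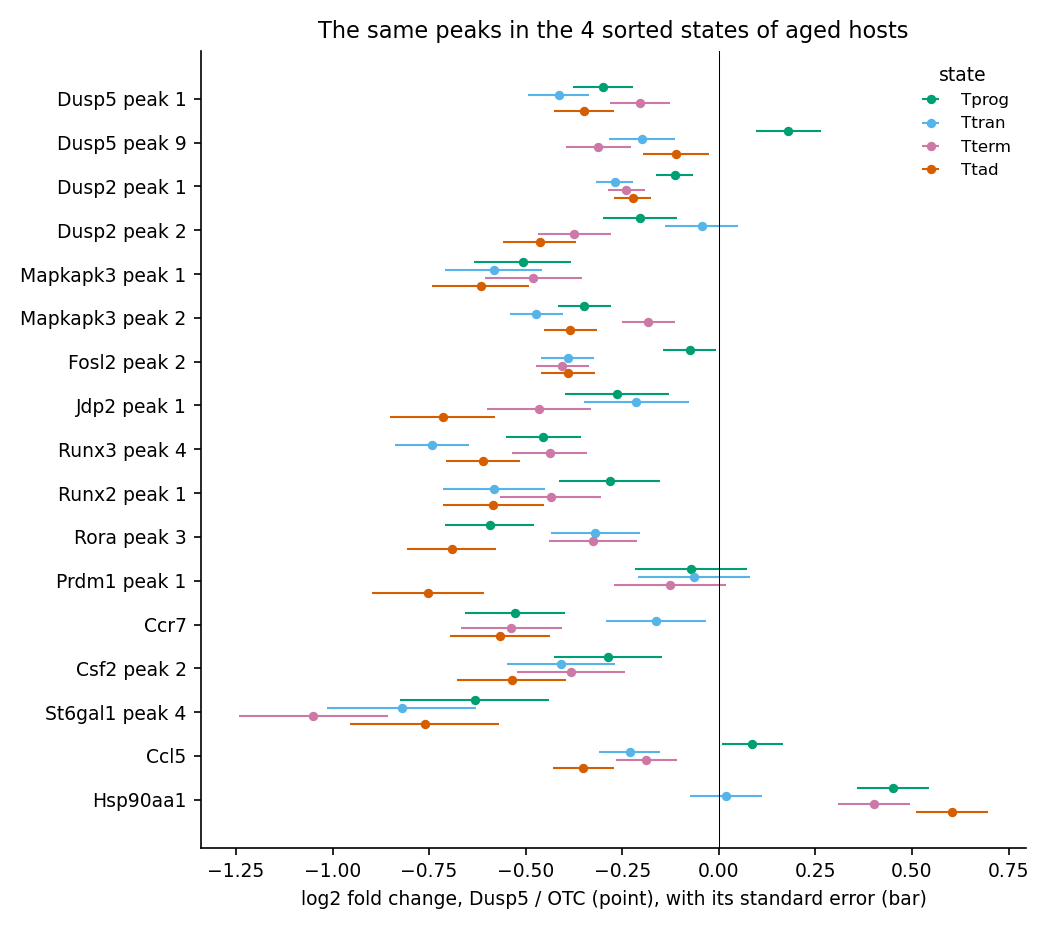
Log2 fold change of Dusp5 over OTC (horizontal axis; bars are standard errors) for 17 peaks in the 4 sorted states of aged hosts (colours). The Runx3 and Mapkapk3 peaks are below 0 in all 4 states, and the Prdm1 peak is at -0.75 in Ttad and between -0.13 and -0.06 in the others.

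Whether the effect in Ttad differed from its mean over the other 3 states was tested directly. limma and edgeR called 15 peaks (0.0278%), 13 with a more positive effect in Ttad (0.0241%) and 2 with a more negative one (0.00371%), while limma alone called 91 (0.169%), edgeR alone 16 and voom alone 10. Thy1 led the negative ones, at -2.66 (SE 0.17, limma adjusted p = 3.09e-24). The Thy1 peak also fell in Ttran (log2 fold change -3.72, limma adjusted p = 8.53e-40) and Tterm (-2.85, limma adjusted p = 2.98e-31). In Tprog it was higher, at 0.62 (limma adjusted p = 0.0122), so its fall was not particular to Ttad. Stmn1, a microtubule-destabilising protein of dividing cells, followed at -0.54 (SE 0.12, limma adjusted p = 0.0204), with 694 and 658 against 796 and 876 in Ttad. Its change in Ttad was not called (log2 fold change -0.30, limma adjusted p = 0.0793), and its log2 fold changes elsewhere were 0.33 in Tprog, 0.44 in Ttran (limma adjusted p = 0.00392) and -0.06 in Tterm. The positive ones with a gene were led by peaks near Dse and Gbp8 and within Cyrib, which with Stmn1 did not pass voom.

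Finally the Dusp5 libraries were compared with those carrying the Zfp219 guide in aged Ttad, a test that leaves out the OTC libraries. It called 4179 peaks by limma and edgeR (7.76%), 1916 higher (3.56%) and 2263 lower (4.2%) in Dusp5. The Rora peak with the largest called fall (69339781 to 69341024) was at 660 and 691 in Zfp219 Ttad, and its Dusp5 against Zfp219 log2 fold change was 0.24 (SE 0.11, limma adjusted p = 0.188). Against OTC, the values of that peak were -0.69 for Dusp5 and -0.93 for Zfp219; these comparisons share the OTC libraries. The last St6gal1 peak was at -0.76 for Dusp5 and -0.99 for Zfp219 against OTC. The Rora peak at 69313017 to 69315327, which fell by all 3 tests against OTC, was higher in Dusp5 than in Zfp219 (log2 fold change 0.30, limma adjusted p = 0.0172). Jdp2 differed between the guides: its stronger peak held 463 and 513 in Zfp219 Ttad, with a log2 fold change of -0.60 for Dusp5 against Zfp219 (limma adjusted p = 0.00204). So did the Hsp90aa1 peak, at 312 and 378 in Zfp219 Ttad, a log2 fold change of 0.80 (limma adjusted p = 6.66e-10), the Fosl2 promoter peak at -0.29 (limma adjusted p = 0.00343), and the Thy1 peak at -1.70 (limma adjusted p = 2.1e-16).

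Letters of the promoters were then counted. Of 11549 protein-coding promoter windows under a peak, 19.3% held the ETS letters, against 12.9% of 240 windows under peaks that fell by limma and edgeR and 5.81% of 86 under peaks that fell by 3 tests. In the strongest of the 10 bins by level, the share was 19.9% of 3862 windows. The CRE letters were in 3.44%, 0.833% and 1.16% of the first 3 sets. SP and KLF letters were in 35.5%, 37.5% and 41.9%, and RUNX letters, present in the Runx3 window, in 3.61%, 4.17% and 2.33%. In the strongest bin the SP and KLF share was 40.3%, the CRE share 3.63% and the RUNX share 3.37%. NRF1 letters were in 2.25%, 0.833% and 0.0% of the first 3 sets and in 1.81% of the strongest bin. The AP-1 letters were in 3.27%, 3.75% and 3.49%. Median GC content was 62.0%, 64.0% and 64.2%. These are counts of letters in fixed windows, with no test.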

How the data were processed

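ATAC-seq signal was deposited by the authors for 53868 peaks in 48 libraries. Each value is a whole read count divided by a size factor of its library, as the values show: 100.0% of values in the 4 compared libraries gave whole reads within a tolerance of 0.01. The build is mm10, and Bowtie2 2.2.9, Picard 2.8.0, SAMtools 1.3.1, MACS2 2.1.1 and DESeq2 1.28.1 are named, per the submitters' processing notes, without their roles; whether peaks were called on pooled libraries is not given in the sources used here. Coordinates are as the deposited table gives them. Groups came from sample titles.

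Values were tested as log2(value + 1) by limma 3.58.1 (trend, R 4.3.3) with all 48 libraries in 21 groups, since 2 libraries a group leave 2 residual degrees of freedom. edgeR 4.0.16 (quasi-likelihood, TMM) and limma voom were run on the recovered reads. P-values were adjusted over all peaks (Benjamini-Hochberg, threshold 0.05). The scripts were tested on simulated data, where limma with the spread pooled over 21 groups made false calls; the joint call of 3 tests was added after that, and counts and adjusted p-values of limma alone should be read with it. Peaks went to the gene body they overlap, otherwise to the nearest within 100 kb (RefSeq, GRCm38.p6). Gene identity over a distance is an assignment, not a link.

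The members and lists were chosen with earlier results of these data known. Named peaks are all Dusp5 peaks, the 10 largest rises and falls and the 5 strongest in each direction among calls of limma and edgeR whose groups do not overlap (mean of at least 20 in the higher group), up to 3 in each direction for the difference between states, and calls at listed genes. Loci with several falls and Cd8a were added after their values were seen. Reads carry no molecular identifiers. Some items are not reported here.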

Additional observations from a re-analysis of the deposited data

Results flagged for a closer look

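The Dusp5 effect in aged Ttad differed from its mean over the other 3 aged states at 91 peaks by limma, 16 by edgeR and 10 by voom, and 77 of the 91 were also called in Ttad itself. The largest named differences of log2 fold changes were 2.6422 near Dse, 1.866 within Cyrib and 1.3037 near Gbp8 upward, and -2.66 at Thy1 and -0.5412 at Stmn1 downward. In Ttad the Dse peak held 67.4 and 55.1 normalized reads against 18.4 and 11.1, the Cyrib peak 86.4 and 130 against 50.3 and 23.4, and the Gbp8 peak 120 and 169 against 60.4 and 60.4. Each was tested as an interaction, and Thy1 alone of these 5 also passed voom.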

How the results depend on the processing

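The 1552 peaks called by limma in the comparison of Dusp5 with OTC became 843 by edgeR, 232 by voom, 780 after quantile and 855 after cyclic loess normalization (chosen after seeing the data), 169 with the compared groups alone and 369 with library quality weights. Leaving out 1 library at a time gave 668 to 1344. The arm that loses a library then holds 1, which is assumed to vary like the other groups. Of the 224 peaks called by 3 tests, 118 stayed called after quantile and 128 after loess normalization, 151 with the compared groups alone and 170 with quality weights; 1 changed sign after each of these normalizations, quantile and loess. In Tprog (447) quality weights gave 803 and single left-out libraries 105 to 298. In Ttran (2047) voom gave 1234, quantile 1291, the compared groups alone 745, quality weights 1134 and left-out libraries 706 to 1549. In Tterm (2215) quantile gave 1130, the compared groups alone 764, quality weights 1375, loess 1181 and left-out libraries 548 to 2674. The difference between states (91) became 16 by edgeR, 10 by voom, 31 with a pseudocount of 8, 8 with the compared groups alone, 18 with aged libraries alone, 8 with quality weights and 69 to 307 with a library left out, the highest without OTC Ttad replicate 2. Dusp5 against Zfp219 (4625) became 3060 with the compared groups alone and 1676 to 3165 with a library left out. The cause was not tested. At loci of the gene lists 35 peaks were called by limma, and 19, all lower, when only peaks over gene bodies were assigned. Share of higher calls against Zfp219 moved from 43.9% to 57.4% under loess normalization. With the replicate number as a replicate block the counts were 1523, 81 and 4596 for the 3 tests involving Ttad. Same-numbered libraries of Dusp5 and OTC Ttad deviated together at r = 0.0126. Over 66 pairs of aged groups this r ran from -0.0148 to 0.0146. It cannot show whether same-numbered pools shared mice or handling, which was not stated.

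Uncalled peaks at Dusp5 changed sign when 1 library was left out, with log2 fold changes of -0.1998 to 0.0756 at peak 3, -0.0843 to 0.5498 at peak 6, -0.3534 to 0.0774 at peak 7, -0.4258 to 0.1923 at peak 8, -0.0721 to 0.077 at peak 10 (-0.0069 by voom), -0.2201 to 0.3423 at peak 11, -0.2661 to 0.0378 at peak 12, -0.0896 to 0.3053 at peak 13 and -0.1445 to 0.5386 at peak 14. Depth limits weak peaks most, since groups with 1 to 3 reads set several of the largest fold changes.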
